A study of Mus musculus with 33 samples.

Results

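The zinc finger cluster of distal chromosome 4 is a set of 10 protein-coding genes, Zfp990, Zfp992, Zfp981, Zfp993, Zfp991, Zfp982, Zfp985, Zfp979, Zfp984 and Zfp933, named here in their order along the chromosome. They were taken by symbol from the 32245 genes of each of 3 tables of normalized counts, and all 10 were found in every table. In the GENCODE M21 annotation (GRCm38) the cluster runs from the start of Zfp990 at position 145510759 of chromosome 4 to the end of Zfp933 at position 147848366. Attention came to the cluster from values of Zfp979 in the Ptpmt1 knockouts and controls of a pair of mouse lines, so the members were chosen by those readouts and the contrasts that share those libraries are described here without a test.

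RNA of mouse cardiomyocytes, labelled as nuclear RNA, was sequenced after removal of ribosomal RNA. Every line carries a cardiomyocyte-specific knockout of Ptpmt1, a mitochondrial phosphatase needed to make cardiolipin. The second mutations lie in the pathway that phosphorylates the initiation factor eIF2: Eif2a in the labels is its alpha subunit (gene Eif2s1), and Hri and Gcn2 are kinases that act on it. The FST table holds 12 libraries: 3 doubles with the Ptpmt1 knockout and the Eif2a mutation, 3 Ptpmt1 knockouts, 3 Eif2a mutants and 3 controls. The PHT table holds 9 libraries: 2 doubles with the Ptpmt1 knockout and a Hri knockout, 3 Ptpmt1 knockouts, 2 Hri knockouts, which the genotype label also calls cardiomyocyte-specific, and 2 controls. The PTGC table holds 6 libraries: 3 doubles with the Ptpmt1 and Gcn2 knockouts and 3 controls. The strain, age and sex of the animals, the Cre driver and the exact Eif2a allele do not appear in the labels, nor do they say whether replicates were separate animals, so p-values measure only the spread between these samples. Of the 33 samples of the series, 6 of a line with the Ptpmt1 knockout alone are not analysed here.

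Zinc finger proteins of this kind carry a KRAB domain, which binds the co-repressor Trim28, and an array of zinc fingers that reads a DNA sequence. Trim28 brings in the histone methyltransferase Setdb1 and heterochromatin proteins, and the best-known targets of the family are retrotransposons and imprinted loci. The genes of distal chromosome 4 arose by repeated local duplication, so that members and their neighbours resemble each other closely, and in mouse embryonic stem cells the region has been tied to the silencing of retrotransposons. Zfp979 has the RefSeq synonym Ssm1b, a name that comes from a modifier of transgene methylation that differs between mouse strains.

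The promoter windows of several members were alike, and 5 windows are printed. They set Zfp979, Zfp985 and Zfp984, members whose levels differed between libraries, beside a similar window of Zfp982 and a dissimilar window of Zfp933. Zfp982 has further windows, not printed, that were less alike. RefSeq windows on GRCm38.p6, from 250 bases before to 50 bases after a gene's start, matched 7 of the 10 members, with 9 windows in all, and none for Zfp990, Zfp991 and Zfp992. Each is given 5′ to 3′ on the gene's own strand: Zfp979 at chr4:147642459-147642758 (minus), Zfp985 at chr4:147553027-147553326 (plus), Zfp984 at chr4:147809739-147810038 (minus), Zfp982 at chr4:147492167-147492466 (plus) and Zfp933 at chr4:147848369-147848668 (minus). Capitals mark CCAAT or GGGCGG on either strand.
Zfp979: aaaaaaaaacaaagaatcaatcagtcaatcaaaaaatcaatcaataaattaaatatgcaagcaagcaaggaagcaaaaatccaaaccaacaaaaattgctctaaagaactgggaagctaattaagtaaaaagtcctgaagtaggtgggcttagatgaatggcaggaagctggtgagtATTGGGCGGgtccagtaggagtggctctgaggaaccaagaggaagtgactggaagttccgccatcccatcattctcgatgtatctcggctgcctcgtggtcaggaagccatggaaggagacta
Zfp985: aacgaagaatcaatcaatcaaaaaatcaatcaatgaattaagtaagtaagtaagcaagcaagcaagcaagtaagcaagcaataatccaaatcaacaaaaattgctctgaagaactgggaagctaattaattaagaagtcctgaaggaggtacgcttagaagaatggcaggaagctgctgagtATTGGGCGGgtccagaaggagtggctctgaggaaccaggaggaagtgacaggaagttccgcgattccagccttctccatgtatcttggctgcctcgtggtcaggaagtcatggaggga
Zfp984: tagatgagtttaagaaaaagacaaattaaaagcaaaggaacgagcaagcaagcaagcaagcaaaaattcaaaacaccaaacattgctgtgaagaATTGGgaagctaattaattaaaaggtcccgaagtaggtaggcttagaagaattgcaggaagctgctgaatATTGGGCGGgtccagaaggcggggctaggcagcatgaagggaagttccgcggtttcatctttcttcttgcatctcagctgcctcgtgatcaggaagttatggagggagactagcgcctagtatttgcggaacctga
Zfp982: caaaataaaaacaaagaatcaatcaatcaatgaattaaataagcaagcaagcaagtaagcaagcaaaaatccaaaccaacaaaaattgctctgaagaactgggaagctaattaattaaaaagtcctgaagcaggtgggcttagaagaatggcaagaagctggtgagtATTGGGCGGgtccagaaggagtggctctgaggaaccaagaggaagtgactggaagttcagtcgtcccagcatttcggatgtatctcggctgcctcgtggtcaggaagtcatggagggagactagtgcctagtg
Zfp933: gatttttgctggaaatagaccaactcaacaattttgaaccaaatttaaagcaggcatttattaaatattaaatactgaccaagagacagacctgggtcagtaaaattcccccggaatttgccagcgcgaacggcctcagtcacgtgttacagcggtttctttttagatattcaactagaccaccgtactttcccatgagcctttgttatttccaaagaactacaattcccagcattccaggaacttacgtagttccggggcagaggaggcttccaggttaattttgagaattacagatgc
In the first 4 of these windows an inverted CCAAT box overlaps a GGGCGG box in the run ATTGGGCGG, and a window of Zfp981 has the same run. On either strand, CCAAT occurred in 37.4% of all 32851 RefSeq promoter windows and GGGCGG in 35.7%, while the joined run occurred in 84 windows (0.256%), which belong to 82 genes. The joined run was picked after the member windows were seen, so its presence in them is a description and no test. Of those genes, 10 start in a 5 Mb interval of chromosome 4 that spans the cluster, and 5 of the 10 are members. Over the aligned bases, the printed Zfp982 window was 91.7% identical to that of Zfp979, and the Zfp985 window 85.8%. The other Zfp982 windows, which start at 147442864 and 147500436, were 41.8% and 49.2% identical to that of Zfp979 and lacked the joined run. The Zfp984 window was 80.2% identical to that of Zfp979, and the Zfp933 window 46.5%. The Zfp933 window held none of the motifs searched, which also included TATAAA (13.6% of all windows), TGATGNAAT (0.965%) and TGACGTCA (1.79%).

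Sequence likeness also limits the counts. Of the 50-base stretches in the annotated transcripts of a member, the share found in at least 1 other gene was 86.8% for Zfp993 and 82.2% for Zfp991, and Zfp993 shared 81.9% with Zfp991. Zfp984 shared 54.5%, mostly with Gm13212, Zfp992 43.0%, Zfp981 40.0%, Zfp990 29.1% and Zfp979 27.1%. The shares of Zfp985 (15.9%), Zfp982 (11.9%) and Zfp933 (1.83%) were lower. The labels do not say how reads that fit several genes were counted, so the values of Zfp993 and Zfp991 in particular are uncertain, and 282 exonic bases of Zfp984 overlap Gm20707 on the same strand.

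Library totals ranged over 1887978 to 12583868 reads in FST, 10739569 to 19405261 in PHT and 10795644 to 19326112 in PTGC. FST double 2 (1887978 reads, 15336 genes with reads) and FST Eif2a mutant 1 (6535417 reads, 15157 genes) stood apart from the other FST libraries, which each had 17567 or more genes with reads. Ptpmt1 followed its labels in all 27 libraries. It had 39.8 to 49.2 normalized counts in FST doubles and 31.3 to 40.6 in FST Ptpmt1 knockouts, against 150 to 163 in Eif2a mutants and 156 to 175 in controls. In PHT it had 76.7 and 78.1 in doubles and 40.0 to 64.8 in Ptpmt1 knockouts, against 245 and 284 in Hri knockouts and 241 and 289 in controls. In PTGC it had 66.1 to 74.5 in doubles and 288 to 349 in controls. All 10 cardiomyocyte markers were detected, at 4.59% to 7.56% of a library's summed signal. Marker lists of fibroblast, endothelial, mural, macrophage, lymphocyte and erythroid cells whose shares differed without overlap are given beside the comparisons they touch.

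**Figure D1:**
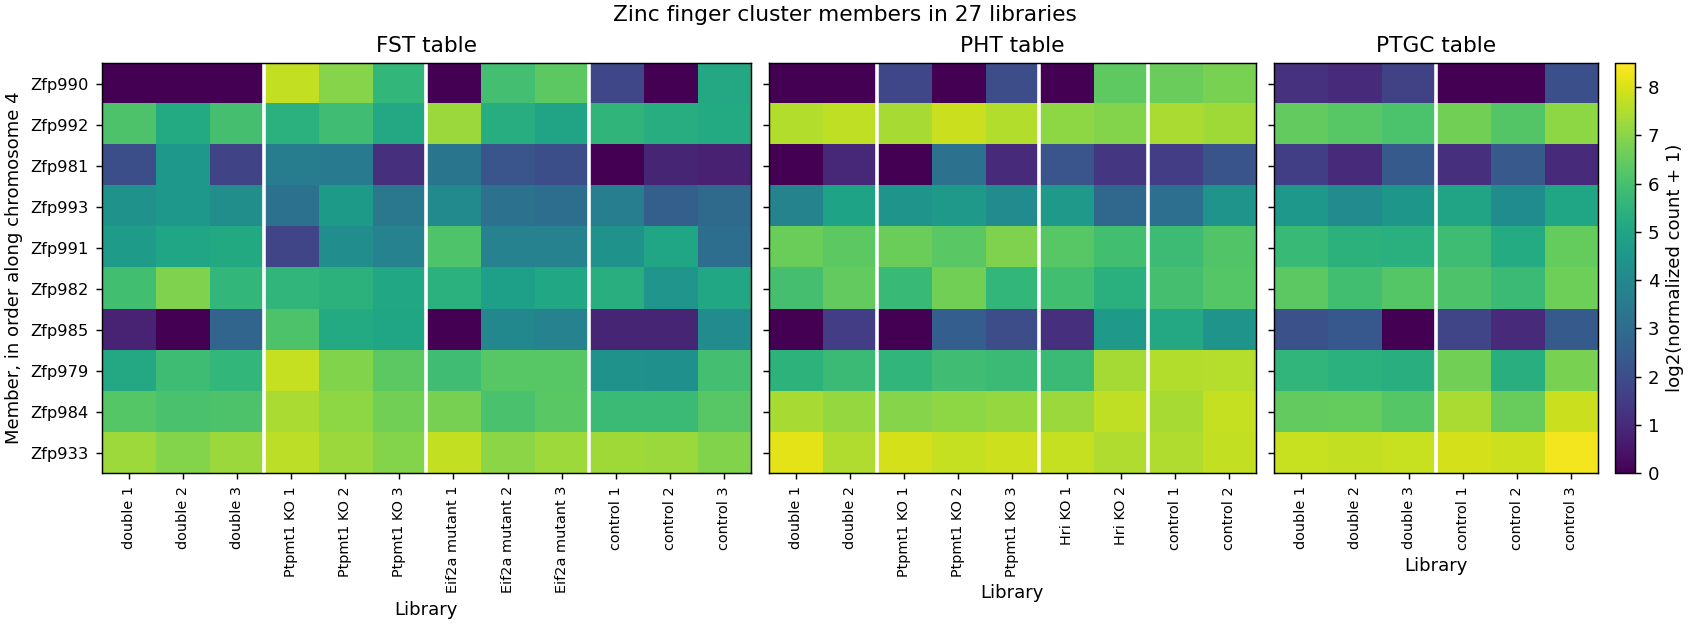
Each square is 1 member (rows, in order along chromosome 4) in 1 of 27 libraries (columns, grouped by genotype, with white lines between groups), coloured by log2(normalized count + 1). Zfp990 and Zfp985 are dark or bright in different libraries of 1 genotype, as in the Eif2a mutants, the Hri knockouts and the FST controls, while Zfp933 is bright in all libraries.

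Zfp990, at 145510759 to 145539188 on the plus strand, was either near 0 or clearly present, and the difference ran through genotype groups. In FST it had 0, 0 and 0 normalized counts in doubles 1 to 3, 208, 122 and 48.0 in Ptpmt1 knockouts, 0, 61.9 and 81.8 in Eif2a mutants, and 2.47, 0 and 33.8 in controls. The libraries with expression were thus all 3 Ptpmt1 knockouts, Eif2a mutants 2 and 3 and control 3, and the FST double 2 library was shallow enough that 0 reads allow up to 13.3 normalized counts. In PHT Zfp990 had 0 and 0 in doubles, 2.49, 0 and 3.0 in Ptpmt1 knockouts, 0 and 83.3 in Hri knockouts, and 94.2 and 111 in controls. Here Hri knockout 2 stood with both controls, and Hri knockout 1 with the doubles and the Ptpmt1 knockouts. In PTGC it was near 0 throughout, at 1.34, 1.02 and 2.15 in doubles and 0, 0 and 3.20 in controls, which is 5 reads over the doubles and 3 reads over the controls.

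The position of the widest step between neighbouring libraries, sorted by log2(value + 1), gives a description of the main split without use of the labels. For Zfp990 this step was 3.33 log2 units in FST, with 6 libraries above it at 33.8 to 208 and 6 below it at 0 to 2.47, and it divided the Eif2a mutants and the controls. In PHT the step was 4.4 log2 units, with 3 libraries above it at 83.3 to 111 and 6 below it at 0 to 3.0, and it divided the Hri knockouts. Libraries with Y-linked reads, taken as male, were 5 of the 6 above and 4 of the 6 below in FST, and 1 of the 3 above and 4 of the 6 below in PHT. Total reads were 7729635 to 12583868 above and 1887978 to 10420017 below in FST, and 11251680 to 16944648 above and 10739569 to 19405261 below in PHT. The titles end in a number whose meaning the labels do not state. In FST 5 of the 6 libraries below had lower numbers than all 6 above, the exception being double 3, while in PHT the numbers ran from 64 to 83 above and from 28 to 90 below. A part of sex, depth or whatever these numbers stand for was not tested.

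Zfp985, at 147553277 to 147585198 on the plus strand and distal to Zfp990, showed nearly the same pattern at lower counts. It had 0.778, 0 and 5.85 normalized counts in FST doubles, 68.4, 36 and 31.5 in Ptpmt1 knockouts, 0, 14.7 and 12.6 in Eif2a mutants, and 0.823, 0.831 and 16.2 in controls. Its widest step in FST, 1.9 log2 units, placed the same libraries above as that of Zfp990 plus double 3. In PHT it had 0 and 1.9 in doubles, 0, 4.79 and 3.0 in Ptpmt1 knockouts, 1.26 and 23.4 in Hri knockouts, and 33.9 and 20.3 in controls. The step of 1.88 log2 units again left Hri knockout 2 and both controls above. PTGC values were 0 to 4.08 in doubles and 1.05 to 4.27 in controls.

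Zfp979, at 147611937 to 147642513 on the minus strand, was detected in every library, and its low and high libraries were largely those of Zfp990. It had 34.2, 57.5 and 48.0 normalized counts in FST doubles, 213, 118 and 81.4 in Ptpmt1 knockouts, 58.4, 76.6 and 77.6 in Eif2a mutants, and 18.9, 18.3 and 61.8 in controls. Control 3 lay above the doubles and above Eif2a mutant 1, while controls 1 and 2 were the lowest of the table. In PHT it had 44.3 and 54.3 in doubles, 47.3, 58.8 and 55.0 in Ptpmt1 knockouts, 54.2 and 161 in Hri knockouts, and 184 and 188 in controls. The widest step, 1.44 log2 units, left Hri knockout 2 and both controls above it, as for Zfp990 and Zfp985. In PTGC it had 47.4, 41.9 and 39.7 in doubles and 102, 39.7 and 109 in controls, with a step of 1.09 log2 units that split control 2 from controls 1 and 3.

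Zfp984, at 147753974 to 147809788 on the minus strand, varied less. It had 74.7, 66.3 and 69.1 normalized counts in FST doubles, 171, 132 and 102 in Ptpmt1 knockouts, 108, 66.3 and 79.7 in Eif2a mutants, and 54.3, 54.9 and 77.2 in controls. In PHT its values were 166 and 142 in doubles, 122 to 143 in Ptpmt1 knockouts, 148.7 and 204 in Hri knockouts, and 165 and 216 in controls. Its PTGC values were 87.5, 89.8 and 75.2 in doubles and 170, 91.0 and 225 in controls, and the step of 0.90 log2 units again split control 2 from controls 1 and 3. Zfp993 and the neighbour Gm13212 had their widest PTGC step in the same place.

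**Figure D2:**
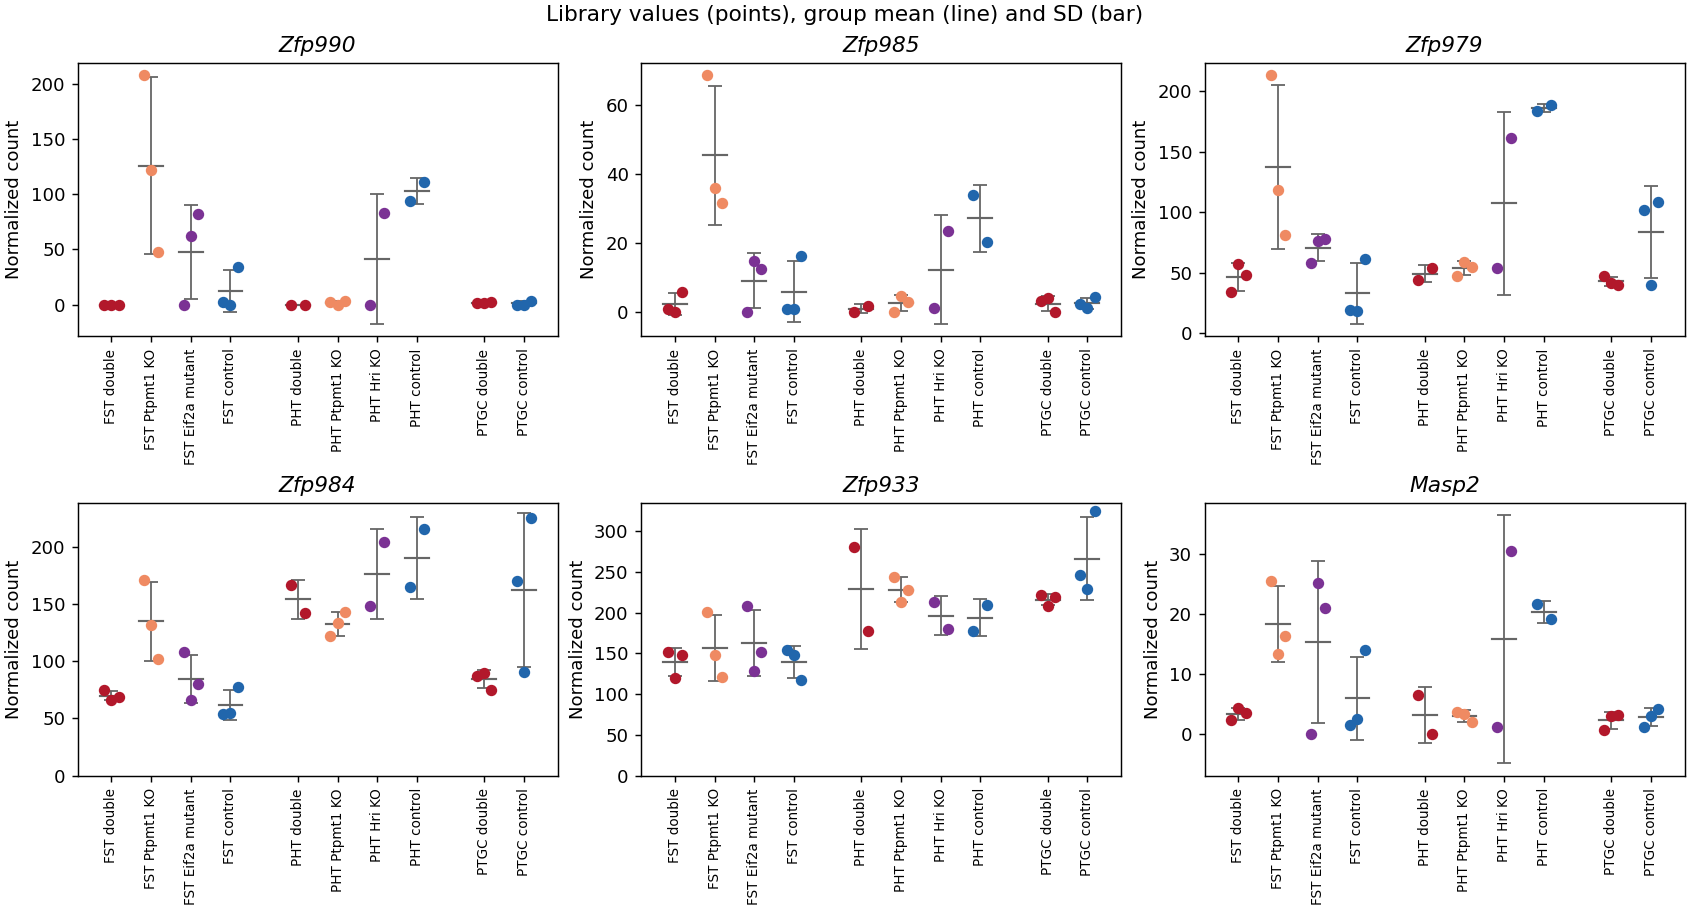
Points are the normalized counts of single libraries for 5 members and the neighbour Masp2, on linear axes, with the group mean as a line and the SD as a bar, for doubles, Ptpmt1 knockouts, single mutants and controls of each table. Zfp990 lies at 0 in every FST and PHT double, and within the Eif2a mutants and the Hri knockouts it is at 0 in 1 library and at 61.9 to 83.3 in the others.

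Zfp933, at the distal end (147822986 to 147848366, minus strand), was the steadiest member of the FST table by its SD within groups. It had 119 to 152 normalized counts in FST doubles, 121 to 200 in Ptpmt1 knockouts, 129 to 208 in Eif2a mutants and 118 to 154 in controls, and all these groups overlapped. Its PHT values were 281 and 177 in doubles, 213 to 244 in Ptpmt1 knockouts, 213 and 180 in Hri knockouts, and 178 and 210 in controls. In PTGC it had 208 to 221 in doubles, below 246, 229 and 325 in controls.

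Zfp982 (147492417 to 147513486, plus strand), which has been linked to the stem cell state of mouse embryonic stem cells, had 59.1, 115 and 48.0 normalized counts in FST doubles, 47.7, 42.6 and 32.2 in Ptpmt1 knockouts, 41.9, 26.5 and 32.5 in Eif2a mutants, and 40.3, 20.8 and 32.3 in controls. The doubles lay above all other FST libraries, and the value of 115, from FST double 2, rested on 26 reads. In PHT its values of 62.7 and 86.7 in doubles lay inside the range of the Ptpmt1 knockouts (48.0 to 103) and above the Hri knockouts (59.2 and 41.3), with 63.1 and 76.3 in controls. Its PTGC values overlapped, at 59.2 to 81.5 in doubles and 54.4 to 98.2 in controls.

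Zfp991 (147132038 to 147180579, plus strand) is the member with the second-highest share of stretches found in other genes. It had 24.1, 30.9 and 35.1 normalized counts in FST doubles, 2.39, 17.1 and 12.6 in Ptpmt1 knockouts, 69.8, 12.5 and 12.6 in Eif2a mutants, and 18.9, 30.8 and 7.35 in controls. Within the Eif2a mutants the high library was number 1, the one with no Zfp990 read, and within the controls the low one was number 3, the one with Zfp990. In PHT it had 95.1 and 81.9 in doubles, 95.9, 79.3 and 115 in Ptpmt1 knockouts, 78.2 and 60.0 in Hri knockouts, and 55.6 and 72.8 in controls. Its PTGC values were 40.8 to 52.8 in doubles and 36.6 to 88.6 in controls.

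Zfp992, Zfp981 and Zfp993 lie between Zfp990 and Zfp991. Zfp992 (146449023 to 146470292, plus strand) had 35.4 to 68.5 normalized counts in FST doubles, 34.1 to 57.8 in Ptpmt1 knockouts, 30.4 to 147 in Eif2a mutants and 36 to 46.1 in controls, with 147 in Eif2a mutant 1. In PHT Zfp992 had 183 and 207 in doubles, 168 to 224 in Ptpmt1 knockouts, 131 and 120 in Hri knockouts, and 171 and 155 in controls. Zfp993 (146610961 to 146658160, plus strand) had 17.6 to 22.1 in FST doubles, 7.96 to 23.7 in Ptpmt1 knockouts, 7.34 to 15.2 in Eif2a mutants and 4.99 to 11.5 in controls. Zfp981 (146502027 to 146539395, plus strand) stayed at or below 22.1 in FST, at or below 8.20 in PHT and at or below 4.30 in PTGC. In FST controls it had 0 to 0.831, which is 2 reads over the group. It had 27 reads over the Ptpmt1 knockouts, 15 over the Eif2a mutants and 11 over the doubles of FST.

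Whether a member's libraries split by genotype was counted over all 10 members. The widest step kept every genotype group whole for 0 of 10 members in FST, 1 of 10 in PHT (Zfp992, with a step of 0.24 log2 units) and 0 of 10 in PTGC. For Ptpmt1 it kept every group whole in all 3 tables, with steps of 1.59, 1.61 and 1.93 log2 units. It did so for 155 of all 13896 genes tested in FST, 402 of 14965 in PHT and 432 of 14128 in PTGC, so a step that divides a group is not particular to the members. The distance between the highest and the lowest group mean exceeded the widest range within 1 group for 4 of 10 members in FST (Zfp979, Zfp984, Zfp985 and Zfp990), against 11.9% of 13896 genes tested. In PHT it did so for 6 of 9 members tested, against 20.6% of 14965 genes, and in PTGC for 0 of 7, against 8.20% of 14128 genes. For Zfp990 both distances were wide, at 6.75 and 6.37 log2 units in FST and 6.69 and 6.40 in PHT. For Ptpmt1 they were 2.17 and 0.37 in FST. Genes tested are those that reached 10 normalized counts in as many libraries as the smallest group of the table holds, which all members did in FST, all but Zfp981 in PHT and all but Zfp981, Zfp985 and Zfp990 in PTGC. A member such as Zfp990 passes this filter only through its high libraries, so these counts describe the members tested and support nothing further.

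**Figure D3:**
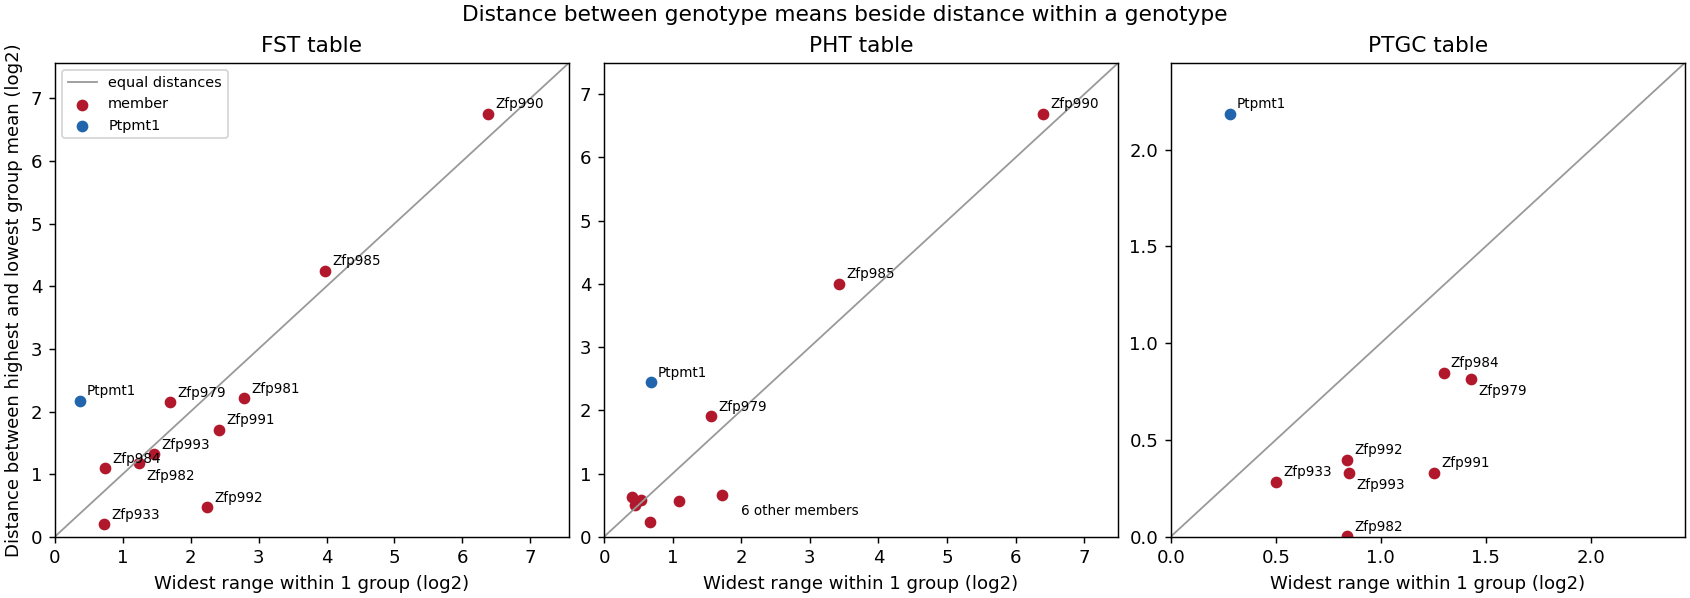
Each point is a member (red) or Ptpmt1 (blue), with the widest log2 range inside 1 genotype group on the x axis and the log2 distance between the highest and lowest group mean on the y axis, and the line marks equal distances. Ptpmt1 lies far above the line in all 3 tables, whereas Zfp990 lies close to it in FST and PHT and all 7 PTGC members lie below it.

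The spread inside genotype groups was wide for several members. The SD of log2(value + 1) about the group means was 2.27 for Zfp990 in FST and 2.14 in PHT, at the 99.9th percentile of the genes tested in both tables. Zfp985 followed with 1.65 (99.8th percentile) in FST and 1.48 (99.6th) in PHT. In FST, Zfp981 had 1.11 (97.3rd), Zfp991 1.07 (97.0th), Zfp979 0.63 (91.4th) and Zfp933 0.29 (69.8th). Zfp981 had only 2 reads over the FST controls and 27 over the Ptpmt1 knockouts, so counting error also widens its SD. In PTGC, Zfp979 had 0.57 (97.2nd percentile), Zfp984 0.48 (94.6th) and Zfp991 0.46 (94.0th). The median over the members tested was 0.661 in FST, 0.440 in PHT and 0.378 in PTGC, against 0.194, 0.154 and 0.171 over all genes tested. Among the other genes of the interval whose symbols begin with Zfp, Gm or Rex or end with Rik it was 0.394 in FST (7 genes tested), 0.344 in PHT (8 genes) and 0.337 in PTGC (7 genes). Among all other genes named Zfp with a number it was 0.214 in FST (335 genes), 0.157 in PHT (343 genes) and 0.192 in PTGC (339 genes). Without FST double 2 and Eif2a mutant 1, Zfp990 had 1.62, Zfp985 1.26, Zfp991 0.948, Zfp979 0.702 and Zfp993 0.555. Zfp982 had 0.339, Zfp984 0.281 and Zfp933 0.253, and Zfp992 fell from 0.687 to 0.261. Zfp981 no longer passed the filter, and the median of all genes was 0.164.

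Other genes of the same 5 Mb interval were compared with the members. Of 78 such genes in the tables, Dhrs3, Angptl7 and Masp2 were in the top 5% of their table by SD within groups in FST, Platr16, Gm21411, Masp2 and Gm13205 in PHT, and Gm13205 in PTGC. Masp2, a serine protease of the lectin pathway of complement at 148602554 to 148615499, had SDs of 1.51 in FST and 1.53 in PHT. In FST it had 2.33, 4.42 and 3.51 normalized counts in doubles, 25.5, 13.3 and 16.4 in Ptpmt1 knockouts, 0, 25.1 and 21 in Eif2a mutants, and 1.65, 2.49 and 14.0 in controls. In PHT it had 6.48 and 0 in doubles, 3.74, 3.42 and 2.0 in Ptpmt1 knockouts, 1.26 and 30.4 in Hri knockouts, and 21.7 and 19.1 in controls. Its high libraries were thus those of Zfp990 in both tables, although 3118 bases of its span overlap Tardbp on the other strand. Gm21411 was at 0 in all FST doubles, in Eif2a mutant 1 and in controls 1 and 2, and at 3.15 to 17.5 in the same 6 libraries that expressed Zfp990. Platr16, just proximal to Zfp990, was at 0 in all PHT doubles, Ptpmt1 knockouts and Hri knockout 1. It was at 11.7 in Hri knockout 2, against 4.71 and 11.9 in PHT controls. In FST, where it did not pass the filter, it had 2.54, 5.89 and 2.10 in Eif2a mutants 1 to 3. It thus did not divide the Eif2a mutants as Zfp990 did. It was at 0 in FST doubles, at 3.15 to 21.5 in Ptpmt1 knockouts, and at 0, 0 and 3.68 in controls.

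**Figure D4:**
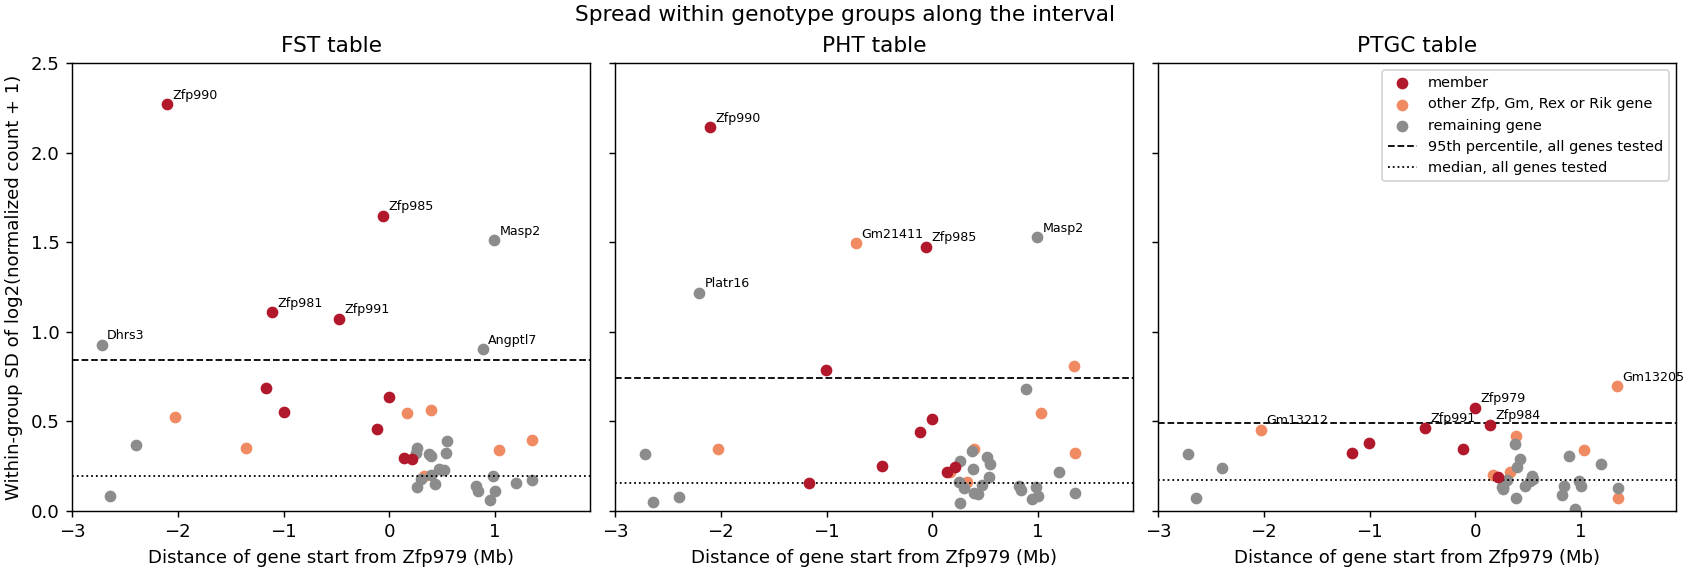
Points are genes tested in each table, placed by the distance of their start from that of Zfp979 in Mb (x axis) and by the SD of log2(normalized count + 1) within genotype groups (y axis), with dashed and dotted lines at the 95th percentile and the median of all genes tested. Zfp990, Zfp985 and Masp2 stand above the dashed line in both FST and PHT, as do Zfp981, Zfp991, Dhrs3 and Angptl7 in FST alone and Gm21411, Platr16, Gm13205 and Zfp993 in PHT alone.

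A search over all genes tested in both tables, made after these values were seen and given as a description only, asked which genes have their widest step at the same place as Zfp990. In FST 1 gene tested besides Zfp990 itself did, Akr1e1, in the opposite direction, while Gm21411, which also split there, did not pass the filter in that table. In PHT 14 genes did in the same direction, Zfp990 included, and 12 in the opposite direction, and 5 of those 14 lie in the interval (Zfp990, Zfp985, Zfp979, Masp2 and Platr16). Of 13873 genes tested in both tables, only Zfp990 and Akr1e1 had the step at that place in both. Akr1e1 encodes an aldo-keto reductase and lies on chromosome 13, at 4590750 to 4609174. It had 254, 247 and 258 normalized counts in FST doubles, 25.5, 59.7 and 50.5 in Ptpmt1 knockouts, 249, 102 and 48.3 in Eif2a mutants, and 255, 272 and 83.8 in controls. In PHT it had 348 and 381 in doubles, 377, 398 and 383 in Ptpmt1 knockouts, 344 and 65.4 in Hri knockouts, and 68.8 and 118 in controls. In PTGC, where Zfp990 was near 0 throughout, Akr1e1 was high throughout, at 367 to 396 in doubles and 368 to 473 in controls.

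**Figure D5:**
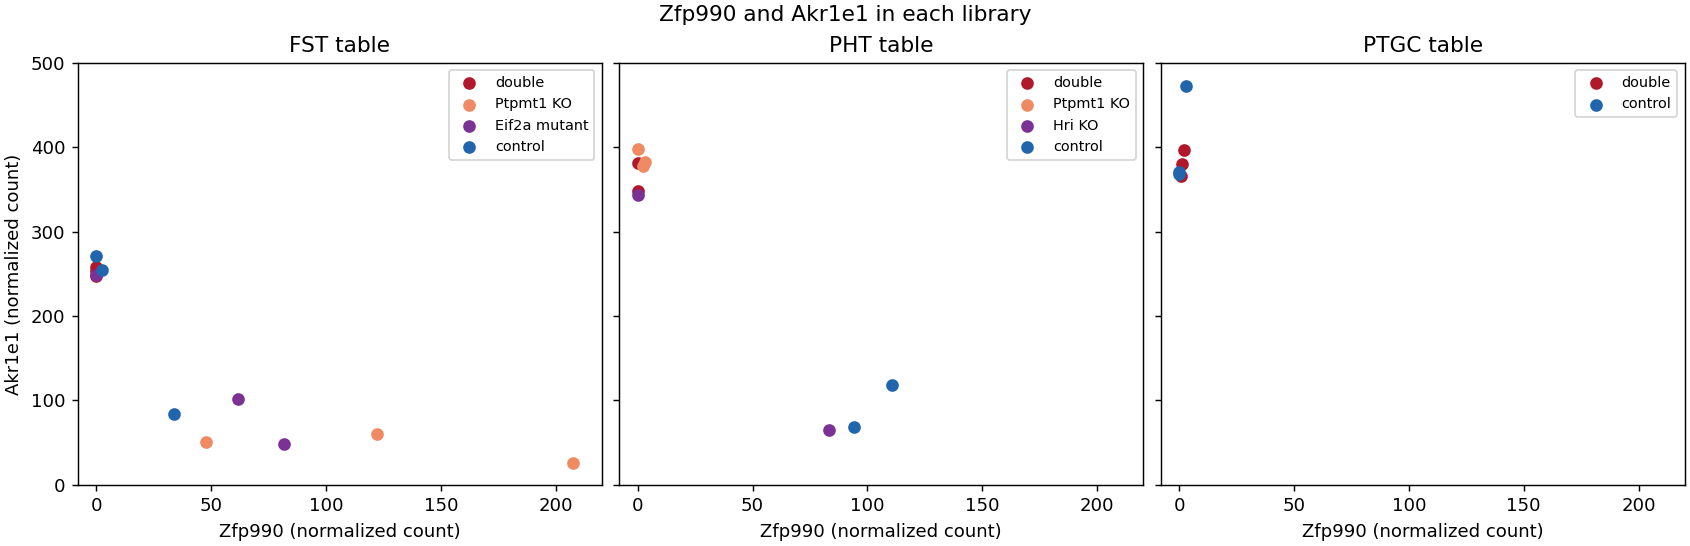
Each point is 1 library, with the normalized count of Zfp990 on the x axis and that of Akr1e1 on the y axis, coloured by genotype, in 3 panels for the 3 tables. Libraries with Zfp990 at or below 3.20 have Akr1e1 at 247 or more, and libraries with Zfp990 at 33.8 or more have Akr1e1 at 118 or less, whatever their genotype.

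The contrast of Ptpmt1 knockout with control is the one from which the cluster was chosen. For 4 members it ran in opposite directions and without overlap in both the FST and PHT lines. The share of all genes that did so is not given, so this count supports nothing further. The log2 difference also changed sign for Zfp991 (-0.89 in FST, with overlap, and 0.58 in PHT), opposite to the 4. It did so for Zfp982 as well (0.41 and -0.11), with overlap in both lines. In FST the knockouts lay above the controls without overlap for 5 of 10 members tested (Zfp979, Zfp981, Zfp984, Zfp985 and Zfp990). Of all genes tested, 19.1% did not overlap in either direction. Zfp981 was near the floor here, with 27 reads over the knockouts and 2 over the controls. Its lowest knockout had 1.26 normalized counts and its highest control 0.831. On the log2(value + 1) scale, knockout minus control, Zfp990 differed by 4.45 ± 1.41 (SE), Zfp985 by 3.50 ± 1.10, Zfp979 by 2.15 ± 0.41 and Zfp984 by 1.10 ± 0.23. In PHT the groups did not overlap for 6 of 9 members, against 23.6% of genes, with the knockouts lower for Zfp979, Zfp984, Zfp985 and Zfp990 and higher for Zfp933 and Zfp991. The differences were -5.42 ± 1.32 for Zfp990, -3.26 ± 1.06 for Zfp985, -1.78 ± 0.34 for Zfp979 and -0.51 ± 0.18 for Zfp984. Zfp990 averaged 126 ± 79.9 normalized counts in FST knockouts and 12.1 ± 18.9 in FST controls (SD, n = 3 each). It averaged 1.83 ± 1.61 in PHT knockouts (SD, n = 3) and 103 ± 11.8 in PHT controls (SD, n = 2), and the tables were normalized separately. Beside these differences, the summed share of 6 mural cell markers was 0.0388% to 0.0453% in FST knockouts and 0.0471% to 0.0520% in FST controls, with 3 of the 6 genes higher and 1 lower without overlap. In PHT mural markers had 0.0438% to 0.0455% in knockouts and 0.0466% to 0.0478% in controls, with 2 of 6 genes higher and 0 lower. Erythroid markers had 0.0130% to 0.0580% in PHT knockouts and 0.0665% to 0.0858% in controls, with 7 of 8 genes lower, and endothelial markers had 0.108% to 0.109% in knockouts and 0.0983% to 0.103% in controls, with 3 of 7 genes higher. None of these markers was at 0 throughout a table, and a part of these cells in the member values was not tested.

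The other contrasts that share those libraries gave a mixed picture. FST doubles and Ptpmt1 knockouts did not overlap for 6 of 10 members, against 17.8% of genes, with Zfp979, Zfp984, Zfp985 and Zfp990 lower in doubles and Zfp982 and Zfp991 higher. Zfp990 was at least 99.3-fold lower in these doubles, taking 3 reads over the group as the limit that 0 reads allow. This limit, used for all such folds of Zfp990, assumes that the libraries of a group share 1 level. It covers counting error only, and the shallow FST double 2 alone allows more. FST Eif2a mutants and controls did not overlap for 1 of 10 members (Zfp981), against 16.3% of genes. FST doubles lay above controls without overlap for 3 of 10 members (Zfp981, Zfp982 and Zfp993), against 19.5% of genes. In both of these contrasts Zfp981 was near the floor, with 15 reads over the Eif2a mutants, 11 over the doubles and 2 over the controls. PHT doubles and Ptpmt1 knockouts overlapped for all 9 members tested, where 24.0% of genes did not overlap. PHT Hri knockouts lay below controls without overlap for 4 of 9 members (Zfp979, Zfp982, Zfp990 and Zfp992), against 29.4% of genes. PHT doubles and controls did not overlap for 5 of 9, against 32.2% of genes, with Zfp979, Zfp985 and Zfp990 lower in doubles, the last by at least 67.5-fold, and Zfp991 and Zfp992 higher. Mural markers had a higher share in FST doubles than in Ptpmt1 knockouts (0.0495% to 0.0524%, against 0.0388% to 0.0453%), with 3 of 6 genes higher and 1 lower without overlap. In PHT the erythroid share was 0.0880% to 0.149% in doubles, above both Ptpmt1 knockouts and controls, and the endothelial share was 0.104% to 0.107% in doubles, below Ptpmt1 knockouts and above controls. Without overlap, 8 of 8 erythroid genes were higher in doubles than in Ptpmt1 knockouts and 6 of 8 higher than in controls. Of 7 endothelial genes, 1 was lower in doubles than in Ptpmt1 knockouts and 2 were higher than in controls. PHT Hri knockouts had more summed endothelial (0.111% to 0.112%), macrophage and lymphocyte marker signal than controls and less mural signal (0.0426% to 0.0443%). Without overlap, 4 of 7 endothelial genes were higher and 0 lower, and the other lists were split. Macrophage genes were higher for 3 of 7 and lower for 1, mural genes higher for 1 of 6 and lower for 1, and lymphocyte genes higher for 1 of 6 and lower for 1. A part of these cells was not tested.

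The 3 comparisons whose groups hold no library of those contrasts were tested, and limma called 0 members at an adjusted p below 0.05 in each. In FST and PHT the fitted spread and the filter also drew on the Ptpmt1 knockouts and controls. The p-values of these tables are therefore not independent of the readouts by which the members were chosen. For FST doubles against Eif2a mutants, 2 of 10 members had an unadjusted p below 0.05, against 8.14% of genes, and 0.0072% of all genes were called. The 2 were Zfp982 and Zfp990. Zfp990 passed the filter only with the help of Ptpmt1 knockout and control libraries outside this comparison, so the count supports nothing further. Zfp982 differed by 1.04 ± 0.34 on the log2 scale (SE, limma, adjusted p = 0.573), with all 3 doubles above all 3 Eif2a mutants. By the pooled limit for 0 reads, Zfp990 was at least 37.8-fold lower in the doubles, at 0 in 3 of 3, against a mean of 47.9 ± 42.7 normalized counts (SD, n = 3) in the mutants, 1 of which was also at 0 (limma, adjusted p = 0.575). The median over members was -0.13, with or without Zfp990 at its bound, against 0.0018 over all genes. edgeR and DESeq2 on recovered reads also called 0 members in this comparison. Endothelial markers had 0.123% to 0.127% in doubles and 0.109% to 0.115% in Eif2a mutants, with 4 of 7 genes higher without overlap, and their part was not tested.

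For PHT doubles against Hri knockouts, 3 of 9 members had an unadjusted p below 0.05, against 5.83% of genes, and 0.02% of genes were called. The 3 were Zfp992, Zfp979, which drew attention to the cluster, and Zfp990. Zfp990 passed the filter only with the help of the controls, which lie outside this comparison, so the count supports nothing further. Zfp992 averaged 195 ± 17.0 in doubles and 126 ± 7.90 in Hri knockouts, a log2 difference of 0.63 ± 0.18 (SE, limma, adjusted p = 0.754). Zfp979 averaged 49.3 ± 7.05 in doubles and 108 ± 75.7 in Hri knockouts (SD, n = 2 each), with an adjusted p of 0.805 from limma. Hri knockout 1 (54.2) was level with the doubles and Hri knockout 2 (161) was not, so the log2 difference of -0.92 became -0.14 without Hri knockout 2 and -1.70 without Hri knockout 1. By the pooled limit for 0 reads, Zfp990 was at least 27.4-fold lower in doubles (limma, adjusted p = 0.852), a value that rests on Hri knockout 2. Without Hri knockout 1, limma called Zfp990 (adjusted p = 0.0290, with the lone Hri knockout assumed to vary like the other groups, and 0.0290 to 1.0 over all alternatives), and without Hri knockout 2 both sides were at 0. edgeR and DESeq2 called 0 members, and the median over members was 0.19, against -0.0043 over all genes. Fibroblast markers had 0.178% to 0.191% in doubles and 0.174% to 0.176% in Hri knockouts (3 of 7 genes higher), and endothelial markers 0.104% to 0.107% in doubles and 0.111% to 0.112% in Hri knockouts (3 of 7 lower). Lymphocyte markers, of which 1 of 6 passed the filter, had 5.65e-05% to 0.000260% in doubles and 0.000288% to 0.000460% in Hri knockouts (2 of 6 lower). A part of these cells in the member values was not tested. The share of all genes without overlap is not given for the 3 tested comparisons. It was 29.4% for PHT Hri knockouts against controls and 32.2% for PHT doubles against controls, also with 2 libraries against 2.

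For PTGC doubles against controls, the log2 differences of all 7 members tested were negative, that of Zfp982 only just (-0.0020, and 0.01 with another scaling). Their median was -0.33, against 0.0028 over all genes. Control 3 alone lay above the widest step for Zfp933, Zfp982, Zfp991 and Zfp992. Without it the median was -0.18, with 0.23 for Zfp982, -0.02 for Zfp991, -0.13 for Zfp933 and -0.19 for Zfp992. Of the 7, 2 had an unadjusted p below 0.05, against 11.5% of genes, while 0.743% of genes were called. Zfp984 averaged 84.2 ± 7.87 in doubles and 162 ± 67.6 in controls (SD, n = 3 each), a log2 difference of -0.85 ± 0.27 (SE, limma, adjusted p = 0.308), with no overlap. Zfp979 averaged 43.0 ± 3.97 in doubles and 83.6 ± 38.2 in controls, a difference of -0.82 ± 0.33 (SE, limma, adjusted p = 0.391), and control 2 (39.7) was as low as the lowest double (39.7). Without control 2, limma called both, Zfp979 at an adjusted p of 0.00488 (0.00488 to 0.879 over all alternatives) and Zfp984 at 0.00271 (0.00271 to 0.780). DESeq2 on recovered reads called Zfp984 (adjusted p = 0.0329) and edgeR called 0 members. Fibroblast markers had 0.162% to 0.186% in doubles and 0.135% to 0.161% in controls (2 of 7 genes higher without overlap), and mural markers 0.0472% to 0.0491% in doubles and 0.0398% to 0.0459% in controls (1 of 6 higher). Their part was not tested. In bulk RNA, fewer cells that express a gene and less RNA per cell cannot be told apart.

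A list of 20 proteins tied to silencing by KRAB zinc finger proteins, among them Trim28 and Setdb1, was tested in full, and limma called 0 of 20 in each of these 3 comparisons. An unadjusted p below 0.05 was found for 1 in FST, 0 in PHT and 1 in PTGC. The smallest p in FST belonged to Setdb2, a histone methyltransferase, at 107 normalized counts in doubles and 83.5 in Eif2a mutants (log2 difference 0.35 ± 0.17 SE, limma adjusted p = 0.611). In PHT it belonged to Cbx1, a heterochromatin protein, at 1182 in doubles and 1052 in Hri knockouts (0.17 ± 0.08 SE, adjusted p = 0.857). In PTGC it belonged to Cbx3, of the same family, at 439 in doubles and 542 in controls (-0.29 ± 0.12 SE, adjusted p = 0.387). The median SD within groups over this list was 0.124 in FST, 0.0783 in PHT and 0.126 in PTGC.

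Members also differed in how far they moved together within genotypes. After group means were subtracted, Zfp984 had a Pearson correlation of 0.69 with Zfp979 (Spearman 0.58) over the 27 libraries, which share tables, groups and depth, and ranked 17th of 13769 genes. Without the 2 libraries farthest from the median of Zfp979 (FST control 3 and PTGC control 2) it was 0.58. Over the 21 FST and PHT libraries alone Zfp984 had 0.59 and ranked 267th of 13872 genes. Zfp990 and Zfp985 did not pass the filter in PTGC, but over those 21 libraries they ranked 19th and 39th in likeness to Zfp979, and no correlation is given for them because their libraries fall into separate high and low sets. Over the 27 libraries Zfp982 had 0.26, Zfp992 and Zfp933 -0.06 each, Zfp993 -0.17 and Zfp991 -0.41. The genes most like Zfp979 by this measure were Enoph1 (0.77), Eprn, Pigf, Casc4 and Kin (0.75), and the most opposite were Tnfrsf1a (-0.81), 4930481A15Rik, Pdzrn3, Lmbr1l and Fbxo44 (-0.77). With only table means subtracted, so that differences between genotypes count too, Zfp984 ranked first at 0.81, followed by its overlapping neighbour Gm20707 (0.73) and Gm13212 (0.72), and Akr1e1 was the most opposite at -0.81.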

How the data were processed

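The deposited values are 1 signal per gene and library in 3 tables, in each column whole multiples of 1 step, which reads as counts divided by a size factor by the authors. STAR 2.5.3a, DESeq2 1.12.4 and mm10 are named per the submitters' processing notes, without roles (counter, annotation and strand setting: not given in the sources used here). Dividing each deposited signal column by its step gave whole reads (tolerance 0.1) for 100% of values, and these reads feed the depths and count tests. PHT Ptpmt1 knockout 3 had a step of 1.0004. All 24 pairs of replicates differed beyond sampling noise (chi-square per degree of freedom 2.24 to 42.7). Titles tied every column to a sample, leaving 0 over.

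limma 3.58.1 in R 4.3.3 (trended prior) was fitted to log2(value + 1) of all genes with 10 normalized counts in as many libraries as the smallest group, 1 fit per table, two-sided, with Benjamini-Hochberg adjustment over all genes tested (threshold 0.05). This scale understates changes of low genes. Alternatives used edgeR 4.0.16, DESeq2 1.42.0, other pseudocounts, filters and scalings, a sex term, and each library left out. The method was tried on simulated data with the same dispersion for all genes and changes only in well-expressed genes. That trial does not cover members near 0 or with a wide spread within groups. Named genes were the members, Ptpmt1, neighbours in the top 5% by spread, up to 4 silencing genes by p and the 5 genes most and least like Zfp979. Akr1e1 and the position of widest steps shared with Zfp990 were chosen after values were seen, and the run ATTGGGCGG after the promoter windows were seen. The members and lists were chosen with earlier results of these data known. Sequences are from RefSeq (GRCm38.p6) and positions from GENCODE M21. Intervals and limits for 0 reads (3 reads) cover counting error only, and limits over a group assume that its libraries share 1 level.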

Additional observations from a re-analysis of the deposited data

Results flagged for a closer look

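In 4 members the Ptpmt1 knockouts and controls of the FST and PHT lines did not overlap and lay in opposite orders. The difference between the lines was not tested. Of all genes tested, 19.1% in FST and 23.6% in PHT did not overlap in either direction. The share with opposite orders in both lines is not given, so the count of members supports nothing further. On the log2(value + 1) scale, knockout minus control, Zfp979 differed by 2.15 in FST and -1.78 in PHT. Zfp984 differed by 1.10 in FST and -0.51 in PHT. Zfp985 differed by 3.50 in FST and -3.26 in PHT. Zfp990 differed by 4.45 in FST and -5.42 in PHT. Beside these values, Akr1e1 had 25.5 to 59.7 normalized counts in FST Ptpmt1 knockouts against 83.8 to 272 in FST controls, and 377 to 398 in PHT Ptpmt1 knockouts against 68.8 and 118 in PHT controls.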

How the results depend on the processing

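Member calls under limma were 0 in all 3 tested comparisons. Leaving out 1 library at a time gave 0 calls in FST, 0 to 1 in PHT and 0 to 2 in PTGC, and DESeq2 gave 1 in PTGC. Every other alternative also gave 0 calls. Over all genes, limma, edgeR and DESeq2 called 1, 1 and 22 in FST, 3, 2 and 11 in PHT, and 105, 104 and 179 in PTGC. Directions changed for uncalled members as follows. For FST doubles against Eif2a mutants, Zfp933 was 0.09 and Zfp992 0.91 without FST double 2 and Eif2a mutant 1 together, and Zfp991 was -0.06 with DESeq2 and -0.03 with edgeR. With 1 library left out, Zfp991 ranged from -0.01 to 1.18 and Zfp992 from -0.49 to 0.62. For PHT doubles against Hri knockouts, leaving out 1 library gave -0.14 to 0.52 for Zfp933, -0.41 to 0.05 for Zfp984 and -0.20 to 1.51 for Zfp993. For PTGC doubles against controls, Zfp982 was 0.01 with TMM scaling and -0.20 to 0.23 with 1 library left out. The widest step kept every group whole for 1 member in PTGC without control 3. Of the 10 genes named as most or least like Zfp979, 1 stayed among them with table means subtracted and 2 on FST and PHT alone, an alternative chosen after seeing the data, as was leaving out control 3. The causes were not tested. No paired analysis was possible because no number in the titles is shared between groups of a table, and the labels do not say what the numbers mark. Depth limits FST double 2 most, where 0 reads allow 13.3 normalized counts.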
